A study of Mus musculus with 6 samples.

Results

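The enzymes that build serine, carry its carbon into the folate one-carbon pool and build proline were examined in mouse retina 2 days after optic nerve crush (ONC). They were found by gene symbol. All 10 genes, Phgdh, Psat1, Psph, Shmt1, Mthfd1, Shmt2, Mthfd2, Mthfd1l, Aldh18a1 and Pycr1, were present among the 35485 genes of the tables. Whole retinas came from wild type C57BL/6 mice at 12 weeks of age. ONC samples had a crush of 10 seconds, placed 2 mm from the eye. Sham samples had the surgery without the crush. There were 3 samples in each group, and every sample was a pool of 6 retinas, so the spread between samples is the spread between pools and not between mice. The crush injures the axons of retinal ganglion cells (RGCs), which are a small minority of the cells in a whole retina.

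Serine is made from 3-phosphoglycerate, an intermediate of glycolysis, in 3 steps. Phgdh oxidizes it and commits the carbon to serine, Psat1 adds the amino group and Psph removes the phosphate. Serine hydroxymethyltransferase (Shmt1 in the cytosol, Shmt2 in mitochondria) then splits serine into glycine and a one-carbon unit on tetrahydrofolate. Mthfd1 in the cytosol, and Mthfd2 and Mthfd1l in mitochondria, oxidize that unit to formate or reduce it again for purine, thymidylate and methionine synthesis. Aldh18a1 turns glutamate into the precursor of proline, and the Pycr enzymes complete the ring. Several of these genes are known targets of ATF4, the transcription factor of the integrated stress response, and Müller glia are a known site of serine synthesis in the retina.

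Exon reads on genes numbered 17343945 to 18349331 in the sham samples and 20019818 to 20358008 in the ONC samples. Rod markers summed to 18840 to 19620 RPKM (exon reads scaled to the length of the exons and to the reads of the library) in sham and 20630 to 21960 RPKM in ONC, by far the largest of the marker sums. Sham replicate 1 stood apart from the other sham samples in Sprr1a and Mmp12, which rose strongly after ONC. It had 24 exon reads of Sprr1a and 90 of Mmp12, against 0 and 3 of Sprr1a and 4 and 14 of Mmp12 in the other sham samples and at least 223 and 657 in every ONC sample. It was also highest in Hba-a1, an alpha globin gene, with 1730 exon reads against 883 and 760. In Gfap, an astrocyte marker, it was the lowest sham sample, with 407 exon reads against 591 and 441. Values without it are given below where it changes a call or stands out in a named gene.

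Before any test, the levels of the 10 transcripts differed widely, and their order changed between the groups. In sham retinas the mean RPKM ran from Shmt2 at 10.7 and Psat1 at 10.6 through Psph at 7.48, Mthfd1 at 5.61 and Aldh18a1 at 5.38 to Phgdh at 2.69, Mthfd2 at 2.56, Mthfd1l at 2.09, Shmt1 at 0.775 and Pycr1 at 0.129. Neighbours in that order whose samples overlapped were Shmt2 with Psat1, Mthfd1 with Aldh18a1, and the trio of Phgdh, Mthfd2 and Mthfd1l. In ONC retinas Psat1 led at 19.2 RPKM, followed by Shmt2 at 16.7 and then Phgdh at 11.0. The samples of Phgdh overlapped there with those of Psph, the last enzyme of its pathway, at 10.45 RPKM, whereas in sham retinas every Phgdh value lay below every Psph value. Mthfd2 at 6.36 RPKM overlapped in ONC retinas with Mthfd1 at 6.755 and Aldh18a1 at 7.73. Mthfd1l, Shmt1 and Pycr1 kept the last places, at 2.645, 0.865 and 0.181 RPKM.

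**Figure D1:**
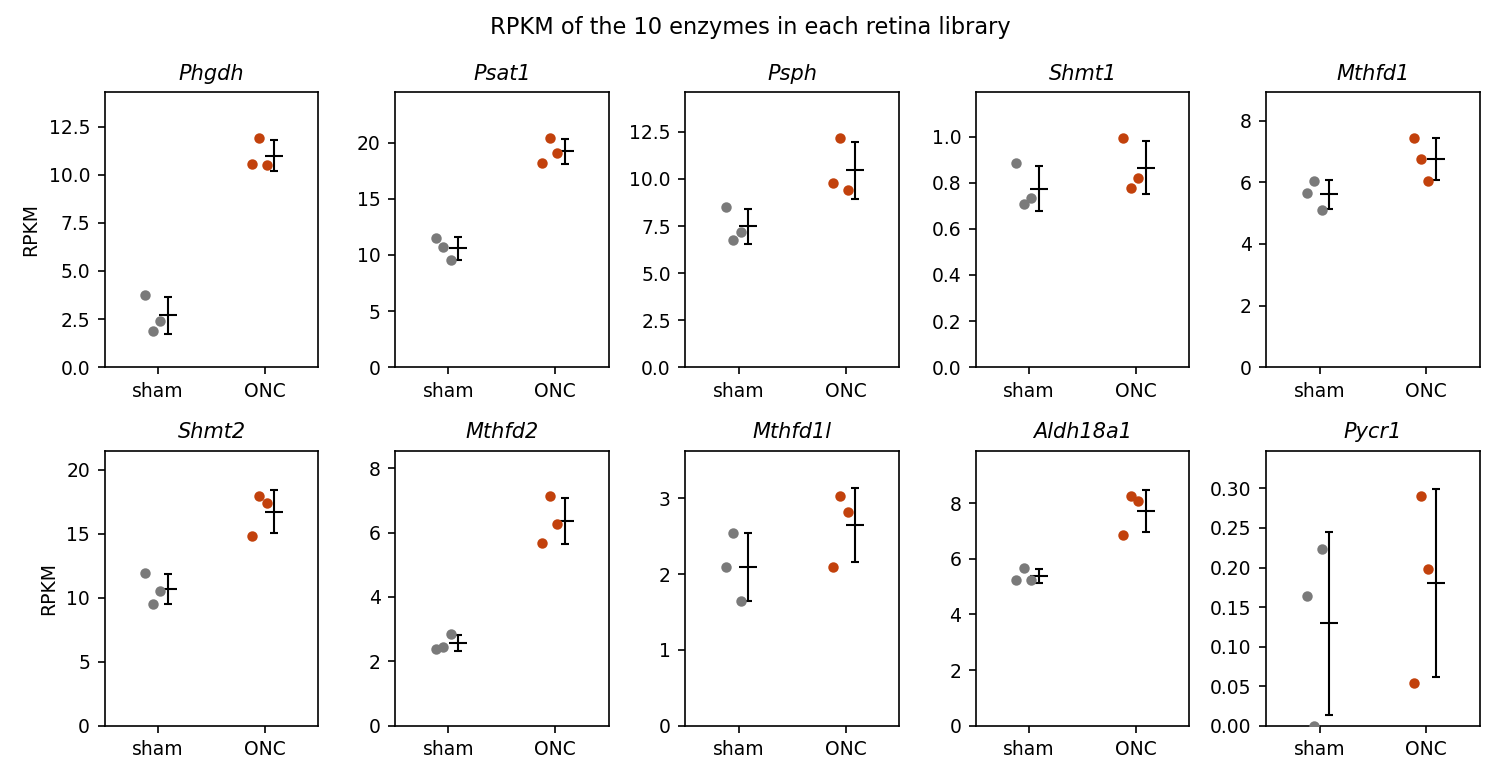
RPKM of each of the 10 enzymes (vertical axes, linear and each with its own scale from 0) in 3 sham and 3 ONC retina samples, 1 dot per sample, with the mean and SD of each group in black. The ONC dots lie above all sham dots for Phgdh, Psat1, Psph, Mthfd1, Shmt2, Mthfd2 and Aldh18a1, and the groups overlap for Shmt1, Mthfd1l and Pycr1.

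Phgdh, Psat1 and Mthfd2 were upregulated after ONC, and none of the 9 enzymes tested was downregulated. Of the 10 genes, 9 were expressed enough to be tested, their mean RPKM in sham or in ONC being over 0.3. When exon reads were compared by the quasi-likelihood test of edgeR, 3 of these 9 passed an adjusted p of 0.1 together with a fold change above 1.5, all of them higher in ONC, where 0.827% of the 13670 genes tested were called higher. By the adjusted p alone 5 of 9 passed in that direction, with Shmt2 and Aldh18a1 added, against 2.38% of all genes. Without sham replicate 1 the number called was again 3. After TMM normalization, the lowest ONC value was above the highest sham value for 6 members (Phgdh, Psat1, Psph, Shmt2, Mthfd2 and Aldh18a1), and for 11.0% of all tested genes. The median log2 fold change was 0.40 over the 9 tested members and 0.01 over all tested genes. In RNA from a whole retina, a change in the number of cells of a type cannot be told apart from a change in the RNA of each cell. Markers of several cell types moved between the groups as well. Of 10 RGC markers 5 were lower in ONC, where 0.834% of all genes were called lower. The summed level of the 10 was 434.6 to 453.2 RPKM in sham and 321.0 to 338.8 RPKM in ONC. By the adjusted p alone 8 of the 10 passed as lower, against 3.72% of all genes, and 1 as higher, against 2.38%. This 1 was Slc17a6, which was higher in every ONC sample than in any sham sample (log2 0.26, edgeR adjusted p = 0.0525). Of 9 microglia and macrophage markers 4 were higher, with sums of 19.3 to 22.8 RPKM and 34.3 to 39.6 RPKM. None of the 8 Müller glia markers was called, and their sum was 999 to 1107 RPKM in sham and 1123 to 1130 RPKM in ONC. None of the 4 astrocyte markers tested (Pax2 was too low) was called, with sums of 29.1 to 34.1 RPKM and 33.7 to 38.3 RPKM. All these sums carry the scaling of RPKM, which moved the median log2 fold change of all tested genes from 0.01 to 0.13. After TMM normalization the median log2 fold change was 0.03 over the Müller glia markers and 0.12 over the astrocyte markers tested. None of the 6 rod markers was called. By the adjusted p alone 2 of the 6 passed as higher, Sag (log2 0.39) and Pde6b (log2 0.18), against 2.38% of all genes. No gene was called among the tested vascular, pigment epithelium, oligodendrocyte and proliferation genes, and 2 of 4 blood genes, Hba-a1 and Hba-a2, were lower in ONC. Without sham replicate 1, Hba-a1 fell short of the fold limit (log2 -0.99 with it and -0.54 without it), and Hba-a2 was still called (log2 -0.84). The part that these cells had in the enzyme results was not tested.

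The largest change among the members was in Phgdh, the enzyme that commits carbon to serine (chr3:98313171-98339969, GRCm38, 12 exons). It had 162, 84 and 111 exon reads in the sham samples and 501, 555 and 509 in the ONC samples. The lowest ONC sample was thus far above the highest sham sample, which was sham replicate 1. The RPKM was 2.69 ± 0.973 (SD, n = 3) in sham and 11.0 ± 0.801 (SD, n = 3) in ONC, and the fold change was 3.77 (log2 1.91, SE 0.18, edgeR adjusted p = 1.1e-06). Without sham replicate 1 the log2 fold change was 2.20, and without sham replicate 2 it was 1.69. Phgdh was the only member with exon reads that mapped to more than 1 place, since 76.9% of its exon reads were unique, from 72.2% to 91.0% by sample. The lowest share was in sham replicate 1 and the highest in sham replicate 3. Unique exon reads numbered 117, 76 and 101 in sham and 387, 410 and 387 in ONC. Counted on unique reads alone its log2 fold change was 1.79, lower than on all exon reads. Most of its exon reads, 80.1%, spanned a junction of 2 exons. These numbered 133, 74 and 85 in sham and 417, 428 and 403 in ONC, in the same order of groups as all exon reads.

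Psat1, the aminotransferase of the second step (chr19:15905123-15925059, 10 exons), was already among the most abundant of these transcripts in sham retinas. It had 660, 638 and 580 exon reads in sham and 1147, 1266 and 1234 in ONC, and the values within each group were close. Its RPKM went from 10.6 ± 1.01 (SD, n = 3) to 19.2 ± 1.12 (SD, n = 3), a fold change of 1.67 (log2 0.74, SE 0.08, edgeR adjusted p = 8.66e-06). Tested by glmTreat against a fold change of 1.5 itself, it was no longer called, while Phgdh and Mthfd2 were. Psph, the phosphatase of the last step (chr5:129765558-129787253, 8 exons), had 301, 248 and 270 exon reads in sham and 380, 466 and 375 in ONC. Its groups did not overlap after normalization, but its log2 fold change of 0.36 (SE 0.13) did not pass the test (edgeR adjusted p = 0.1665). Psph passed the adjusted p, although not the fold limit, with the scaling of RPKM (0.0406), with limma on log2(RPKM + 0.1) (0.0592) and log2(RPKM + 1) (0.0587) and without ONC replicate 1 (0.083). The balance within the pathway also differed. The RPKM of Phgdh divided by that of Psat1 was 0.327, 0.175 and 0.255 in the sham samples and 0.582, 0.584 and 0.549 in the ONC samples, and Phgdh divided by Psph was 0.442, 0.278 and 0.338 against 1.08, 0.978 and 1.115. Neither ratio overlapped between the groups, and the difference in these ratios was not tested. Summed over the 3 enzymes, serine synthesis stood at 19.1 to 23.8 RPKM in sham and 38.55 to 44.5 RPKM in ONC.

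In the folate pathway, the changes that passed a test were in the mitochondrial enzymes. Mthfd2, the mitochondrial dehydrogenase and cyclohydrolase (chr6:83305704-83317604, 8 exons), had 114, 121 and 144 exon reads in sham and 298, 367 and 336 in ONC. Each ONC sample held more than any sham sample. Its RPKM was 2.56 ± 0.246 (SD, n = 3) and 6.36 ± 0.723 (SD, n = 3), with a fold change of 2.27 (log2 1.18, SE 0.16, edgeR adjusted p = 6.48e-05). Shmt2, which makes glycine and the one-carbon unit in mitochondria (chr10:127517123-127522444, 13 exons), had 631, 526 and 595 exon reads in sham and 863, 1027 and 1040 in ONC. The groups were apart, and its log2 fold change of 0.52 (SE 0.10, edgeR adjusted p = 0.00344) passed the adjusted p while its fold change of 1.44 stayed under the limit of 1.5. It passed both with the scaling of RPKM (log2 0.65), with limma on log2(RPKM + 0.1) and log2(RPKM + 1), and without ONC replicate 1 (log2 0.59). The span of Shmt2 overlaps that of Ndufa4l2, which had 4 to 36 exon reads per sample, and no source used here states that the counting used strand. Mthfd1l, which releases formate in mitochondria (chr10:3973075-4167081, 30 exons), had 208, 264 and 175 exon reads in sham and 229, 326 and 317 in ONC. Its groups overlapped, and its log2 fold change was 0.22 (SE 0.16, edgeR adjusted p = 0.527).

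Neither cytosolic enzyme passed the test. Mthfd1, which carries all 3 folate activities in a single protein (chr12:76255232-76319820, 28 exons), had 433, 481 and 416 exon reads in sham and 626, 560 and 522 in ONC. On RPKM its ONC samples lay above its sham samples, but after TMM normalization they overlapped, and the log2 fold change was 0.15 (SE 0.11, edgeR adjusted p = 0.531). Shmt1 (chr11:60788897-60811265, 12 exons) was scarce, with 42, 35 and 37 exon reads in sham and 52, 40 and 44 in ONC. Its log2 fold change of 0.04 (SE 0.34, edgeR adjusted p = 0.966) changed sign when ONC replicate 1 or sham replicate 2 was left out, to -0.09 and -0.04. Few of the exon reads of Shmt1 spanned a junction, and most of its reads lay in introns. Reads that spanned a junction made up 20.8% of its exon reads, against 47.3% to 88.7% in the other 8 tested members and 42.0% to 43.1% of all exon reads on tested genes in a sample, and 25.9% of all tested genes had a lower share. Intron reads made up 65.4% of all its reads in sham and 64.4% in ONC, and 58.4% and 57.6% of those of Aldh18a1. The intron reads of Shmt1 were 100% unique, and those of Aldh18a1 12.1%.

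The mitochondrial and cytosolic forms were set against each other within each sample, which cancels the scaling of the library. The ratio of Mthfd2 to Mthfd1 in RPKM was 0.423, 0.404 and 0.556 in the sham samples and 0.764, 1.05 and 1.03 in the ONC samples. The ratio was higher in every ONC sample, by 1.04 on the log2 scale (SE 0.21) or 2.06-fold. The ratio of Shmt2 to Shmt1 was 13.5, 13.45 and 14.4 in sham and 14.9, 23.0 and 21.2 in ONC, a log2 difference of 0.49 (SE 0.20). Here ONC replicate 1 lay close to the sham samples, and the scarce Shmt1 reads limit the precision. Both differences gave p = 0.1 in a two-sided exact permutation test, the smallest value that 3 samples against 3 allow, and 0.15 after Benjamini-Hochberg adjustment over 3 pairs. The ratio of Mthfd1l to Mthfd1 was 0.369, 0.421 and 0.323 in sham and 0.281, 0.447 and 0.466 in ONC, and overlapped (log2 difference 0.07, SE 0.26, exact permutation p = 0.8). The ratio of Pycr1 to Pycrl had no value because Pycr1 had no exon read in 1 sham sample.

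**Figure D2:**
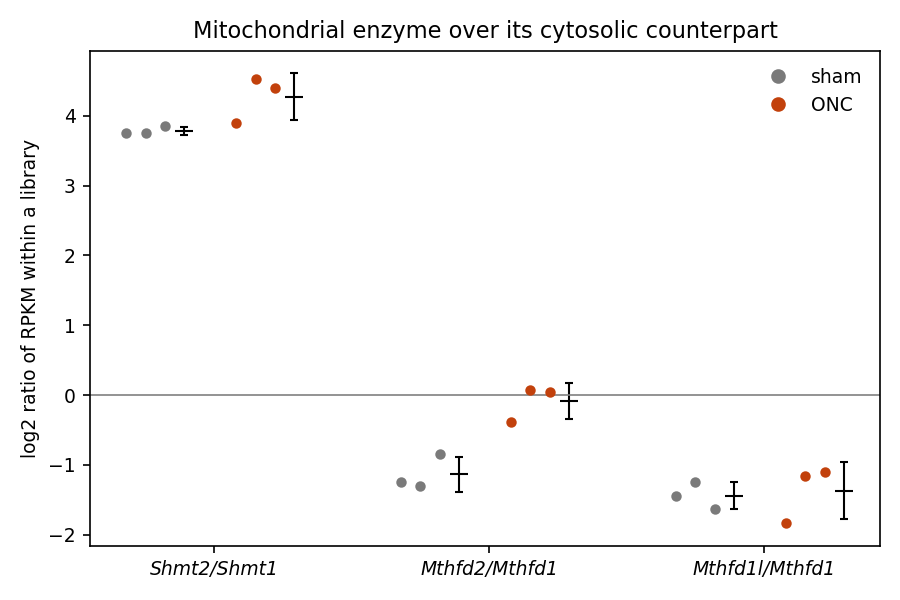
Log2 ratio of the RPKM of a mitochondrial enzyme to that of its cytosolic counterpart (vertical axis) for 3 pairs, 1 dot per sample (grey sham, orange ONC), with the mean and SD of each group in black. The ONC dots of Mthfd2/Mthfd1 all lie above the sham dots, those of Shmt2/Shmt1 lie above them with ONC replicate 1 close to sham, and those of Mthfd1l/Mthfd1 overlap.

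Of the proline enzymes, Aldh18a1, the synthase that reduces glutamate (chr19:40550257-40588463, 20 exons), had 424, 480 and 452 exon reads in sham and 613, 724 and 738 in ONC. All ONC samples were above all sham samples. Its log2 fold change of 0.40 (SE 0.10, edgeR adjusted p = 0.0325) passed the adjusted p, and its fold change of 1.32 was under the limit. The adjusted p rose above 0.1 when ONC replicate 2 (0.147), ONC replicate 3 (0.164) or sham replicate 1 (0.127) was left out. Pycr1, a mitochondrial reductase (chr11:120635712-120643670, 8 exons), was nearly silent and was not tested. It had 11, 0 and 16 exon reads in sham and 4, 21 and 15 in ONC. The 0 in sham replicate 2 allows up to 3 reads, or 0.043 RPKM by counting error alone, and no difference between the groups was detectable at this depth. Pycrl (also called Pycr3), another reductase of this step, stood at 9.75 ± 2.18 RPKM (SD, n = 3) in sham and 12.6 ± 0.988 RPKM (SD, n = 3) in ONC. It did not pass the test (log2 fold change 0.25, edgeR adjusted p = 0.364).

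**Figure D3:**
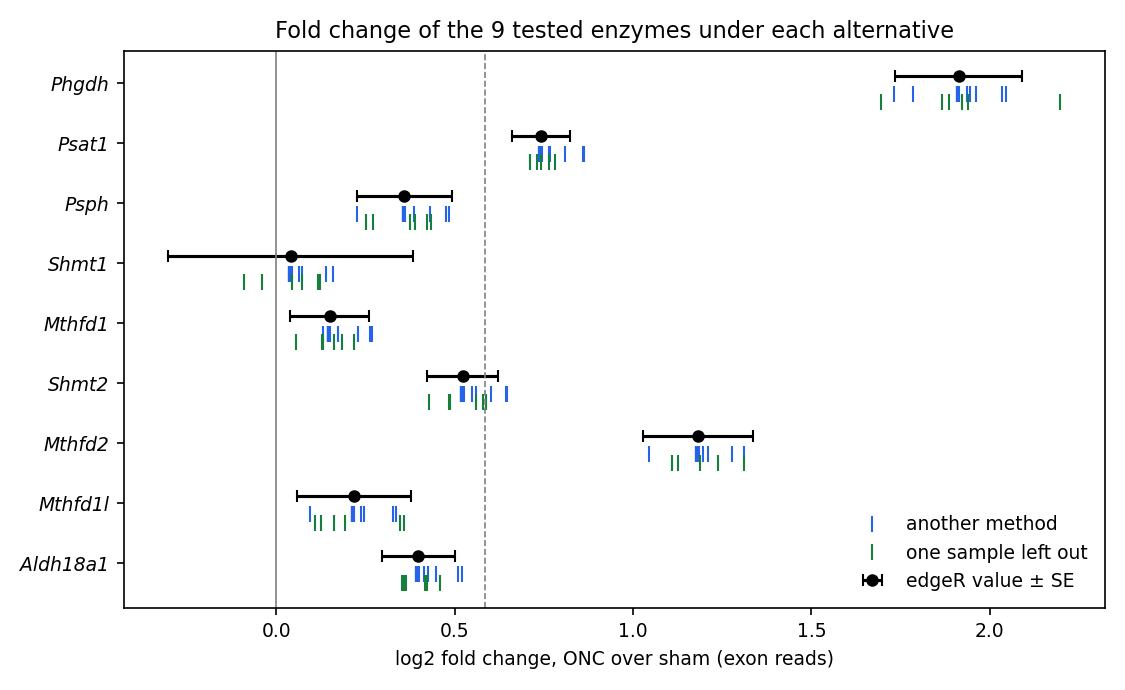
Log2 fold change of exon reads, ONC over sham (horizontal axis), for the 9 tested enzymes. Black points give the edgeR value with its SE, blue ticks other methods, green ticks the fit with 1 sample left out, the solid line no change and the dashed line a fold change of 1.5: every tick of Phgdh, Psat1 and Mthfd2 lies beyond the dashed line, and only Shmt1 has ticks on both sides of 0.

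Reads within introns, which come mostly from unspliced RNA, gave a second and shallower reading of the same genes. Exon reads made up 70.9% to 76.6% of all reads on genes in sham and 78.5% to 80.4% in ONC, and intron reads the rest. Aldh18a1 was the only 1 of the 10 members called on intron reads (log2 fold change 0.60, SE 0.14, edgeR adjusted p = 0.0692), where 0.499% of the 13821 genes tested were called higher. Few of the reads behind that call were unique. Its intron reads numbered 631, 609 and 664 in sham and 894, 928 and 992 in ONC, but 12.1% of them were unique, and on unique reads alone (87, 56 and 81 against 110, 103 and 134) the adjusted p was 0.194, with a log2 fold change of 0.67. It was also lost with the TMM factors of the exon reads (0.291) and in 5 of the 6 fits that left out 1 sample, and the number of all genes called on intron reads ran from 0 to 892 in those fits. Phgdh had 12, 2 and 6 intron reads in sham and 24, 35 and 31 in ONC. Every ONC sample had more than any sham sample, and the log2 fold change was 2.16 (SE 0.66, edgeR adjusted p = 0.118). Mthfd2 had 17, 8 and 29 against 47, 31 and 39, with a log2 fold change of 1.18 (SE 0.50, edgeR adjusted p = 0.239). That was the size found on exon reads, but with the TMM factors of the exon reads it was 0.89. Psat1 (log2 0.63, SE 0.36) and Shmt2 (log2 0.67, SE 0.29) did not pass either. At an unadjusted p of 0.05, 4 of 10 members passed on intron reads, Phgdh, Mthfd2, Shmt2 and Aldh18a1, all higher in ONC, against 6.65% of all genes tested on intron reads. Psph had the one log2 fold change below 0, at -0.04 (SE 0.21), with 131, 123 and 145 intron reads in sham and 95, 146 and 142 in ONC.

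**Figure D4:**
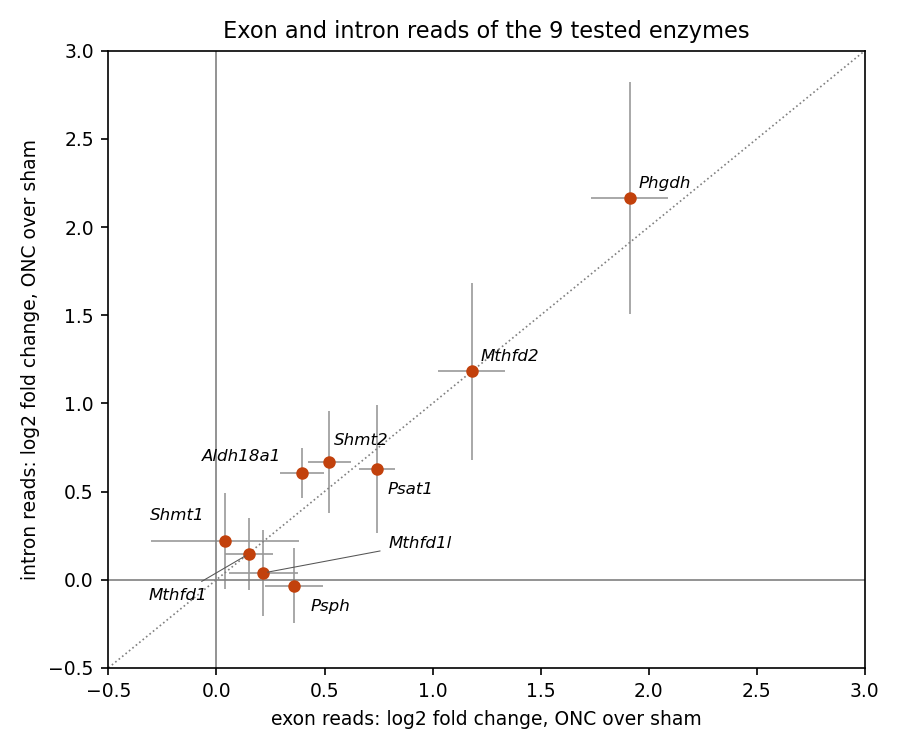
Log2 fold change, ONC over sham, on exon reads (horizontal axis) and on intron reads (vertical axis) for the 9 enzymes tested on exon reads, with SE bars and a dotted line of equal change. Phgdh and Mthfd2 are the farthest from 0 on both axes, and the bars on the intron axis are the longer ones for every gene but Shmt1.

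The genes around the 10 enzymes were read from lists chosen by pathway. Over all 13670 tested genes, 0.827% were called higher and 0.834% lower, to be set beside the counts called in each list. Of 18 genes of glycolysis and pyruvate use, some acting before 3-phosphoglycerate and some after it, none was called higher and 1 was called lower. This was Hk2, a hexokinase, with 6283, 8885 and 6871 exon reads in sham and 5735, 5122 and 6014 in ONC (log2 fold change -0.60, SE 0.09, edgeR adjusted p = 0.000184). The call on Hk2 was lost with the scaling of RPKM (log2 -0.48), which shifts the median of all genes from 0.01 to 0.13, with the sum of exon reads without TMM (log2 -0.57), with limma on log2(RPKM + 0.1) (-0.46) and log2(RPKM + 1) (-0.46), and without ONC replicate 2 (log2 -0.53) or sham replicate 2 (log2 -0.47), that is in 6 of 18 alternatives. By the adjusted p alone 7 of the 18 passed, all with a value below 0, against 3.72% of all genes in that direction. Among them were Pgam1 (log2 -0.27) and Tpi1 (log2 -0.23). For Pgam1, which uses 3-phosphoglycerate, 9.63% of exon reads were unique, so the rest map to other places as well. The median over the list was -0.10 on the log2 scale, against 0.01 over all tested genes.

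Of 27 other enzymes and carriers of the folate, glycine and methionine cycles that were tested, 1 was called higher and none lower, with a median log2 fold change of 0.12. This was Aldh1l2, the mitochondrial enzyme that oxidizes formyl-tetrahydrofolate, with 113, 178 and 84 exon reads in sham and 262, 237 and 215 in ONC (log2 0.72, SE 0.21, edgeR adjusted p = 0.0571). The adjusted p rose above 0.1 without ONC replicate 2 (0.139), sham replicate 1 (0.166) or sham replicate 3 (0.266). With limma on log2(RPKM + 1) its log2 fold change of 0.46 was under the fold limit. It was called in 14 of 18 alternatives. Mthfd2l, the near relative of Mthfd2, stood at log2 0.01 (edgeR adjusted p = 0.981), and Gldc, which breaks down glycine, at log2 -0.11 (edgeR adjusted p = 0.684). Bhmt had no read in any sample.

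Of 11 genes that use or carry serine, 1 was called, with a median of 0.07 on the log2 scale. Slc1a4, a carrier of serine, alanine and cysteine, had 384, 250 and 273 exon reads in sham and 626, 692 and 563 in ONC (log2 0.84, SE 0.15, edgeR adjusted p = 0.00136). Sham replicate 1 was the highest of the sham samples here as well, and without it the log2 fold change was 1.04. Of 17 other proline, glutamate and ornithine genes tested, 1 was called, with a median of 0.06. Asns, which makes asparagine and is a known ATF4 target, had 662, 587 and 578 exon reads in sham and 1228, 1406 and 1408 in ONC (log2 0.93, SE 0.09, edgeR adjusted p = 1.08e-06). Of 7 transcription factors tied to these enzymes, 2 were called, both higher. Atf5 stood at log2 1.04 (SE 0.12, edgeR adjusted p = 1.3e-05) and Ddit3, also named Chop, at log2 0.98 (SE 0.09, edgeR adjusted p = 1.08e-06). The transcript of Atf4 itself had 4776, 4647 and 4270 exon reads in sham and 7756, 7974 and 7733 in ONC. Its groups were far apart (edgeR adjusted p = 2.74e-06), while its fold change of 1.48 fell just under the limit of 1.5. Atf4 passed both limits in 6 of 18 alternatives, among them the fit without sham replicate 1 (log2 0.60, edgeR adjusted p = 3.22e-05). With the scaling of RPKM Atf4 stood at log2 0.68, and 3 of the 7 factors were then called. After TMM normalization, sham replicate 1 was the highest sham sample in Atf4, Atf5, Ddit3 and Asns. The same held for Phgdh, Psat1, Psph, Shmt1 and Shmt2, but not for Mthfd1, Mthfd2, Mthfd1l, Aldh18a1 or Aldh1l2. Nfe2l2 and Myc, which are also known to drive enzymes of these pathways, did not pass (log2 -0.16 and 0.99, edgeR adjusted p = 0.513 and 0.443).

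**Figure D5:**
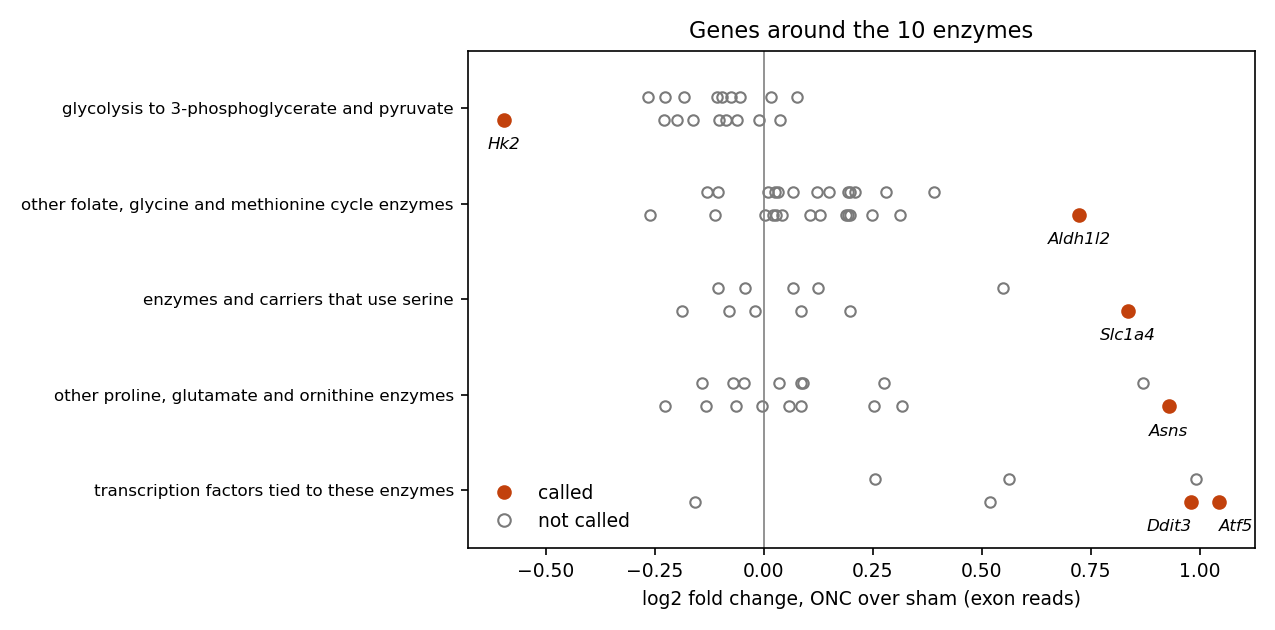
Log2 fold change of exon reads, ONC over sham (horizontal axis), for each tested gene of 5 lists around the enzymes (rows), 1 circle per gene with filled circles for called genes. Hk2 is the called gene on the left, and Aldh1l2, Slc1a4, Asns, Ddit3 and Atf5 are those on the right, while most other circles lie near 0.

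The upstream promoters of Phgdh, Psat1 and Mthfd2 are shown because these are the members that rose. They are RefSeq sequences (GRCm38.p6), 250 bases that end just before the annotated start, on the minus strand in each case: Phgdh at chr3:98339970-98340219, Psat1 at chr19:15925060-15925309 and Mthfd2 at chr6:83317605-83317854. Capitals mark CCAAT in either orientation, the core of the CCAAT box.
Phgdh promoter: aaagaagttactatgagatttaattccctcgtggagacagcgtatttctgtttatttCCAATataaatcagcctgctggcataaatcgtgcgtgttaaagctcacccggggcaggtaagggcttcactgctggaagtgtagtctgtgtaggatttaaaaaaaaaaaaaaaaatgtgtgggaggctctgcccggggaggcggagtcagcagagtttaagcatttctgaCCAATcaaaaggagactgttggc
Psat1 promoter: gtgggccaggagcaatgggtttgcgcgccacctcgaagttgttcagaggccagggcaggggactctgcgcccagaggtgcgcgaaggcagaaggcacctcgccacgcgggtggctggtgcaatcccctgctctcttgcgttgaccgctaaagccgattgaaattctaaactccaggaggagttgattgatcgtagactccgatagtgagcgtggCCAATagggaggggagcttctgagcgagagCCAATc
Mthfd2 promoter: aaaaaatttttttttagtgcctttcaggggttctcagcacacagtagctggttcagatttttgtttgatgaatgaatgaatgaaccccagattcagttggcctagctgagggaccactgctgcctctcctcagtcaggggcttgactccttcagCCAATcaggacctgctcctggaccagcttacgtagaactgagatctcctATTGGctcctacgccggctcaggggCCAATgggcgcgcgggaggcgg
In the windows searched, which run from 250 bases before the start to 50 after it, CCAAT or its complement was found for 7 of the 10 members (in 63.6% of their 11 windows) and in 37.4% of the 32851 windows of all genes. In Phgdh a copy begins 193 bases and another 23 bases before the start, in Psat1 36 and 6 bases and in Mthfd2 96, 47 and 22 bases before it. The letters were also found for Psph, Shmt1 and Mthfd1, which did not pass the test, and for Pycr1, which was not tested. They were not found for Mthfd1l, nor for Shmt2 and Aldh18a1, which passed the adjusted p. These letters are common, and nothing about binding follows from them.

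ATF4 is known to bind, with a CEBP partner, elements of the form TGATGNAA. On either strand those letters were found in 3.97% of all windows and in those of 1 of the 10 members, Pycr1, the member that was nearly silent. The full cyclic AMP response element TGACGTCA was found in 1.79% of all windows and in none of the members'. The stretches below set the match of Pycr1, 103 bases before its RefSeq start (chr11:120643809-120643888, minus strand), beside that of Asns, 23 bases before its start (chr6:7693210-7693289, minus strand), with TGATGNAA in capitals.
Pycr1 promoter stretch: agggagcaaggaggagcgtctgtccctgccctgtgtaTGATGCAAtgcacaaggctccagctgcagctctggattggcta
Asns promoter stretch: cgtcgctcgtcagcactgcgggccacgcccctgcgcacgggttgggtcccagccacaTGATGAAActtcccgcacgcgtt
Both matches read in the direction of the gene, and they differ in the base at the open position of the motif. Asns rose after ONC and Pycr1 was too low to test. The absence of the letters in the windows of Phgdh, Psat1 and Mthfd2 covers these 300 bases alone, and elements in introns or farther away were not searched.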

How the data were processed

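The authors mapped RNA-seq reads of 3 ONC and 3 sham retina pools with CLC Genomics Workbench and deposited 1 table per sample. It holds, per the authors, raw read counts of every gene, taken over its exons or over its whole span, with or without the reads that map to several places. The authors also deposited RPKM, which equals, within 0.0005, exon reads scaled to exon length and to all reads on genes, introns included. Per the labels the build was mm9, but the positions in the tables follow RefSeq GRCm38, and they are printed as given. For Psph, Mthfd1, Mthfd2, Mthfd1l and Pycr1 the printed start or end, or both, differ from those of RefSeq. A column of group mean RPKM was not used.

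Groups and replicate numbers came from the sample labels. The members and the gene lists were chosen with earlier results of these data known, and the CCAAT search was added after the promoter sequences had been seen. Total exon counts were compared with edgeR 4.0.16 (TMM, glmQLFit and glmQLFTest, R 4.3.3) over 13670 genes whose mean RPKM exceeded 0.3 in sham or ONC, with Benjamini-Hochberg adjustment over all of them. A gene was called when its adjusted p was below 0.1 and its fold change over 1.5. The study tested RPKM per gene, and the count test was used here because the tables hold counts. The SE is the log2 fold change over the root of the F statistic. Intron reads (gene reads minus exon reads) were fitted likewise over 13821 genes with a mean of at least 10 in a group. Both fits were tested on simulated counts of 1 spread, near that of the exon reads (biological coefficient of variation 9.17%). Intron reads varied more (23.7%), so the simulation does not show how the intron fit behaves on these data. Ratios were compared with two-sided exact permutation tests (scipy 1.17.1). The p-values measure the spread between pools. Named genes are the 10 members, in each pathway list the called genes with the smallest p up to 4, and Pycrl, Mthfd2l, Aldh1l2, Gldc and Asns, with others chosen after their values were seen. Alternatives were other scalings, filters, read types and tests (DESeq2 1.42.0, limma 3.58.1), other thresholds, the replicate number as a block and leaving out each sample. A gene of the naming rule is not reported here.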

Additional observations from a re-analysis of the deposited data

How the results depend on the processing

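Phgdh, Psat1 and Mthfd2 were called under 18 alternatives of scaling, filter, reads, test, block and samples, with log2 fold changes from 1.69 to 2.20, 0.71 to 0.86 and 1.04 to 1.31. Of the members, 5 passed with no fold limit, 2 with glmTreat (Psat1 was lost), and 3 to 4 when a sample was left out. Over all genes 227 were called, against 51 with glmTreat, 833 with no fold limit, 350 with the scaling of RPKM, 342 on total gene reads and 153 to 353 with a sample left out. The log2 fold change of Shmt1 on exon reads ran from -0.0914 to 0.123 in those fits. The ratio of Mthfd1l to Mthfd1 differed by -0.0384 (log2) on total gene reads and by -0.0582 to 0.307 with a sample left out. With the scaling of RPKM, 0 glycolysis genes were called lower.

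On intron reads 1 member was called, against 2 with DESeq2 or no filter, 0 with exon TMM factors or unique reads, and 0 to 2 with a sample left out. Over all genes 367 were called, against 706 with DESeq2, 1278 with exon TMM factors, 954 without a filter and 0 to 892 with a sample left out. With exon TMM factors the intron log2 fold changes of Shmt1, Mthfd1 and Mthfd1l were -0.0243, -0.10 and -0.24, and with a sample left out those of Psph ran from -0.153 to 0.0494 and those of Mthfd1l from -0.14 to 0.27. The cause of these changes was not tested.

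The replicate numbers shared by the groups did not pair the samples (correlations of deviations -0.047, -0.033 and 0.003). With the replicate block, 222 genes were called on exon reads and 300 on intron reads, and 3 members and 1 member among them, as without it. Counts under about 10 reads, as for Pycr1, and intron reads of single genes are the least precise values here.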
